A study of Caenorhabditis elegans with 6 samples.

Results

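The zona pellucida, molting and apical matrix genes of Caenorhabditis elegans were described in 6 RNA sequencing libraries, 3 made from anchor cells and 3 from cells of the whole body. They are the gene rows whose symbol begins with cut-, cutl-, noah-, lpr- or mlt-, with 1 mlt- gene left out, together with let-653, dex-1, sym-1, fbn-1, let-4, egg-6 and dyf-7. They number 56 of 46748 gene rows, and all 56 are annotated as protein-coding. The 2 groups were anchor cells (labelled as uterine tissue, n = 3 libraries) and whole-body cells (n = 3 libraries), both from wild-type (WT) larvae in the middle of larval stage L3, at the time when P6.p, the central vulval precursor cell, has 2 daughters. No transgene, drug or mutation is named for either group. The sources used here do not say how the anchor cells were taken out of the cell suspension, nor how many animals went into a library. All 6 libraries came from cells released with pronase and passed through a 5 μm filter. Nothing states that the replicates came from separate cultures, so the p-values measure the spread between these libraries, which may be technical.

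The apical extracellular matrix coats the outward or lumenal face of epithelia. In nematodes it makes up the cuticle, the short-lived sheath or precuticle that precedes each new cuticle, and the lining of narrow tubes such as the excretory duct and the vulva. Many of its proteins carry a zona pellucida (ZP) domain, which lets secreted proteins polymerise; cuticlins are ZP proteins of the cuticle, and the lipocalin-related, leucine-rich repeat and protease inhibitor proteins described here shape or protect the matrix. Genes of this kind are known mainly from the epidermis and other external epithelia, and many are transcribed in pulses with each molt. The anchor cell is a specialised uterine cell that crosses the basement membrane toward the vulval epithelium.

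The libraries held 23279623 to 37501816 counts on genes, and rRNA and the mitochondrial genome took 57.1% to 66.4% of them in the anchor cell libraries, against 36.5% to 59.1% in the whole-body libraries. Anchor cell replicate 1 stood apart within its group, with counts on 16990 genes against 11508 and 11073 in replicates 2 and 3. For some genes, though not for all that it moved, the folds are given with and without it. Of 10 anchor cell markers 7 rose in anchor cells, among them the nuclear receptor gene nhr-67; when single libraries were left out, cdh-3 kept its call in 2 of 6 fits and fos-1 in 1, and fos-1 lost it with library totals alone (edgeR adjusted p = 0.0577). Among the 11955 genes tested by edgeR (quasi-likelihood F test, threshold 0.05 on the adjusted p), 2.01% rose and 1.05% fell in anchor cells. Their log2 fold changes had a median of -0.12 with the scaling used here (trimmed mean of M values, TMM) and -0.94 with library totals alone. Levels are given in CPM, the count over the TMM-scaled library size.

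Most genes of this set were detected, and most did not differ between the groups beyond the spread between libraries. Of the 56 genes, 48, 39 and 38 were detected in anchor cell replicates 1, 2 and 3, against 55, 56 and 49 in whole-body replicates 1, 2 and 3. Over all gene rows the order was alike, with 16990, 11508 and 11073 detected in anchor cells, against 21246, 22216 and 17185 in the whole-body libraries. Of the 47 genes with enough counts to be tested, 1 rose and 0 fell in anchor cells by edgeR's test, close to the background of 2.01% and 1.05%. The gene that rose was the cuticlin gene cut-1. Before adjustment, 2 were higher (cut-1 and cut-2) and 5 lower (cut-4, cutl-9, cutl-10, cutl-11 and cutl-27) at p under 0.05, which 11.2% and 13.2% of all tested genes were. Each of the other tools also called cut-1 as the only rise, where 5.37% of all genes rose by DESeq2, 3.45% by limma voom and 5.31% by limma voom with sample weights. They called more falls, namely 7 by DESeq2, 6 by limma voom and 7 by limma voom with sample weights, where 10.6%, 9.47% and 11% of all genes fell by these tools. Every one of these falls other than the lipocalin gene lpr-2 and the fibrillin-like gene fbn-1 was of a cuticlin gene. Of the 47 genes, 1 had all anchor cell libraries above all whole-body libraries and 9 had all of them below, where 12.4% and 23.2% of all tested genes did. Fewer cells of a type and less RNA per cell cannot be told apart in such bulk libraries.

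**Figure D1:**
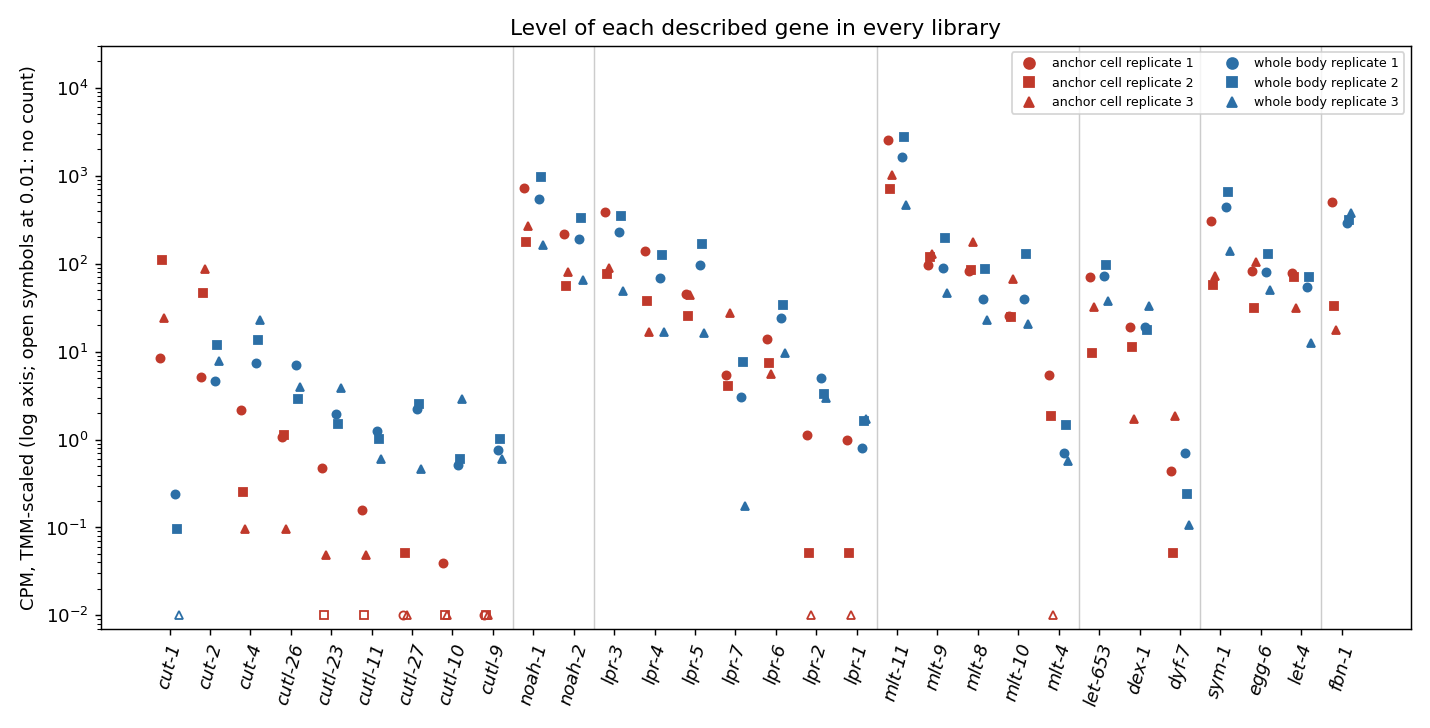
TMM-scaled CPM on a log axis for the 30 genes given with their value in every library, anchor cell libraries in red at the left of each gene and whole-body libraries in blue at the right; open symbols at the bottom are libraries with no count. The anchor cell points of cut-1 all lie above its whole-body points, those of cut-4 and several cutl genes all lie below, and those of the noah, lpr and mlt genes with high counts overlap.

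A filter on low counts decided which genes were tested, and it did not treat the groups alike. Of the 47 tested genes, 22 reached the minimum in all 3 libraries of both groups, 16 in all whole-body libraries but not in all anchor cell libraries, and 3 in all anchor cell libraries but not in all whole-body libraries. A gene of the second or the third kind passed through the group in which it was high, so counts over the tested genes are a description and no support for a direction. The 9 genes that were not tested were cut-3, cut-5, cutl-1, cutl-2, cutl-7, cutl-13, cutl-19, cutl-22 and cutl-25, which reached at most 34 counts in any library. Of these 4 had no count in any anchor cell library, and cut-3 and cutl-1 had all anchor cell libraries below all whole-body libraries.

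The cut-1 gene (WBGene00000851, chromosome II, 11269122 to 11271660 in WBcel235, plus strand) encodes a ZP-domain cuticlin known from the dauer cuticle beneath the lateral ridges called alae. It had 212, 2147 and 501 counts in anchor cell replicates 1, 2 and 3, against 10, 6 and 0 counts in whole-body replicates 1, 2 and 3. Scaled, these are 8.44, 109.8 and 24.1 CPM in anchor cells, against 0.242, 0.0966 and 0 CPM in the whole-body libraries. Every anchor cell library lay far above every whole-body library, although the anchor cell libraries themselves differed by more than 10-fold. The gene rose in anchor cells by 8.62 ± 1.40 on the log2 scale (SE; edgeR adjusted p = 0.0164), with the exact size uncertain because the whole-body side rests on 16 counts. It missed the threshold without anchor cell replicate 2 (log2 fold change 7.10, edgeR adjusted p = 0.0569) and without whole-body replicate 3 (8.12, edgeR adjusted p = 0.0555), and the adjusted p ranged from 9.1e-15 to 0.0569 over the alternatives in which it was tested. Its exons overlap 2 antisense non-coding genes by 147 and 66 bases, C47G2.15 and C47G2.21, and the strand setting of the counting is not given.

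The cut-2 gene (chromosome V, 13414949 to 13416064) encodes a repetitive cuticlin without a ZP domain, a part of the insoluble residue of the cuticle. It had 5.14, 46.6 and 87.2 CPM in anchor cell replicates 1, 2 and 3, against 4.60, 11.97 and 7.74 CPM in whole-body replicates 1, 2 and 3. Anchor cell replicates 2 and 3 were above all whole-body libraries and replicate 1 was not, so the groups overlap. The log2 difference was 2.51 ± 0.89 (SE; edgeR adjusted p = 0.116). It was 3.05 without anchor cell replicate 1 (edgeR adjusted p = 0.0209), and the adjusted p ranged from 0.0209 to 0.330 over the alternatives.

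The cut-4 gene (chromosome II, 10436136 to 10440087), another cuticlin gene, showed the opposite balance. It had 2.15, 0.256 and 0.0963 CPM in anchor cell replicates 1, 2 and 3, against 7.44, 13.5 and 23.1 CPM in whole-body replicates 1, 2 and 3. The groups do not overlap. The log2 difference was -4.12 ± 1.23 (SE) with an edgeR adjusted p = 0.0759, and the gene fell without anchor cell replicate 1, by 6.36 on the log2 scale (edgeR adjusted p = 0.0170; 0.00505 to 0.226 over the alternatives). The remaining tested gene of the cut- class, cut-6, a cuticlin gene with a role in dauer body shape, averaged 2.497 ± 3.14 CPM in anchor cells, against 0.497 ± 0.649 CPM in the whole-body libraries (SD over 3 libraries in each group), with an edgeR adjusted p = 0.450.

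The cutl- genes encode cuticlin-like ZP proteins, most of them with no described role. Of 29 of them 22 were tested, none passed edgeR's test, and 7 had all anchor cell libraries below all whole-body libraries, which is 31.8%, against 23.2% of all tested genes. Before adjustment, none of the 22 was higher and 4 were lower at p under 0.05, which is 18.2%, against 13.2%. DESeq2 called 6 falls and no rise among 23 of them with an adjusted p, which is 26.1%, against 10.6%. These shares were not tested against those of all genes. Their median log2 fold change was -0.71, against -0.12 over all tested genes.

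The cutl genes with the smallest p-values were nearly absent from the anchor cell libraries. The cutl-9 gene had no count in any anchor cell library, against 31, 63 and 17 counts in whole-body replicates 1, 2 and 3. A floor of 3 counts over the 3 anchor cell libraries is 0.0459 CPM and covers counting error only. Measured against this floor, cutl-9 was at least 18.4-fold lower in anchor cells (edgeR adjusted p = 0.0682). The cutl-27 gene had 0, 1 and 0 counts in anchor cell replicates 1, 2 and 3, against 91, 158 and 13 counts in whole-body replicates 1, 2 and 3. Its pooled level was 130.1-fold lower in anchor cells (95% exact binomial interval 23.2 to 5160, counting error only; edgeR adjusted p = 0.0745). The cutl-10 gene had 1, 0 and 0 counts in anchor cell replicates 1, 2 and 3, against 21, 37 and 82 counts in whole-body replicates 1, 2 and 3. Pooled, it was 69.5-fold lower in anchor cells (interval 12.3 to 2766; edgeR adjusted p = 0.0790). None of these adjusted p-values passed the threshold in edgeR, and DESeq2 gave the lowest values over the alternatives, an adjusted p of 0.00318 for cutl-9, 0.00124 for cutl-27 and 0.00410 for cutl-10. The highest were 0.214 for cutl-9, 0.253 for cutl-27 and 0.226 for cutl-10, each by edgeR without whole-body replicate 1.

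Other cuticlin-like genes showed the same order at slightly higher counts. The cutl-11 gene had 4, 0 and 1 counts in anchor cell replicates 1, 2 and 3, against 51, 63 and 17 counts in whole-body replicates 1, 2 and 3 (edgeR adjusted p = 0.174; 0.0285 to 0.499 over the alternatives). The cutl-23 gene had 12, 0 and 1 counts, against 80, 94 and 110 counts (edgeR adjusted p = 0.211; 0.0252 to 0.469 over the alternatives), and the cutl-26 gene had 27, 22 and 2 counts, against 290, 181 and 113 counts (edgeR adjusted p = 0.245; 0.0555 to 0.671 over the alternatives), in the same libraries. The cutl-11 gene passed by DESeq2 (adjusted p = 0.0329) and by limma voom with sample weights (0.0285). The cutl-23 gene passed by DESeq2 (adjusted p = 0.0280), by limma voom without and with sample weights (0.0419 and 0.0252), and by edgeR without anchor cell replicate 1 (log2 difference -6.44, adjusted p = 0.0465), where its anchor cell side rests on 1 count. The groups do not overlap in any of the 3 after scaling. The other 17 tested genes of the whole set were all cuticlin genes. They had log2 differences of -3.16 to 2.55, with 7 above 0 and 10 below, and edgeR adjusted p values of 0.265 or more. One of them, cutl-17, fell by DESeq2. It had 0.279, 0.205 and 0 CPM in anchor cell replicates 1, 2 and 3. In whole-body replicates 1, 2 and 3 it had 0.702, 2.16 and 1.59 CPM, so its groups do not overlap. Among the 17 genes cutl-16 stood out for its spread, a gene chosen here after its values were seen. It had 12.5, 0.205 and 0.144 CPM in anchor cell replicates 1, 2 and 3, against 6.83, 6.66 and 22.1 CPM in whole-body replicates 1, 2 and 3.

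**Figure D2:**
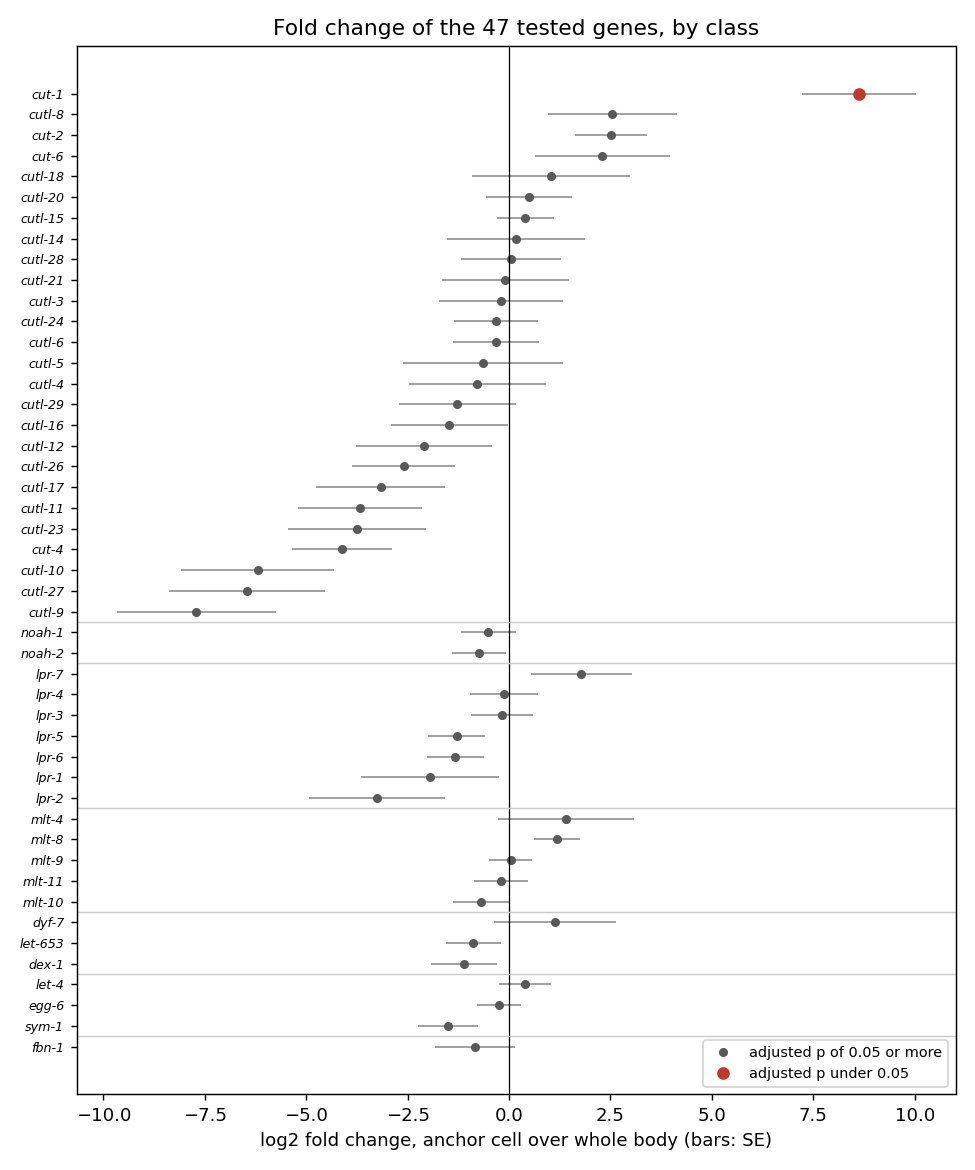
Log2 fold change, anchor cell over whole body, of the 47 tested genes, grouped by class from cuticlins at the top to fbn-1 at the bottom; bars are SE and the red point marks an adjusted p under 0.05. Only cut-1 passed, at 8.62, and the other points run from -7.70 for cutl-9, a fitted value that depends on the prior count since no anchor cell library held a count, to 2.55 for cutl-8.

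The noah genes encode ZP proteins related to Drosophila NompA, parts of the sheath that covers the embryo and of the matrix made at each molt. The noah-1 gene (chromosome I, 5874416 to 5878958) had 733.5, 175 and 268 CPM in anchor cell replicates 1, 2 and 3, against 548, 959 and 164 CPM in whole-body replicates 1, 2 and 3. The noah-2 gene (chromosome IV, 14091254 to 14096626) had 219, 55.1 and 79.7 CPM in anchor cells, against 190.0, 332 and 65.7 CPM in the whole-body libraries. In both genes anchor cell replicate 1 and whole-body replicate 2 were high and whole-body replicate 3 was low, and the groups overlap. The log2 differences were -0.51 ± 0.68 for noah-1 and -0.73 ± 0.66 for noah-2 (SE; edgeR adjusted p = 0.710 and 0.551). Without anchor cell replicate 1 they were -1.33 and -1.54 (edgeR adjusted p = 0.175 and 0.118).

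The lpr genes encode lipocalin-related secreted proteins, of which LPR-1 keeps the excretory duct and pore connected and LPR-3 is a part of the precuticle. Of the 7 genes none passed edgeR's test, at an adjusted or an unadjusted p; the other tools called only lpr-2, as a fall, by limma voom with and without sample weights, and DESeq2 called none. Genes lpr-3, lpr-6, lpr-5 and lpr-4 lie next to each other in this order on the plus strand of chromosome X, between 11057401 and 11066811, with gaps of 200, 251 and 586 bases. The lpr-3 gene had 391, 76.5 and 89.1 CPM in anchor cell replicates 1, 2 and 3, against 227, 351 and 49.4 CPM in whole-body replicates 1, 2 and 3. Its neighbour lpr-4 had 141, 37.7 and 16.7 CPM in anchor cells, against 68.6, 127 and 16.7 CPM in the whole-body libraries. These genes had log2 differences of -0.17 ± 0.77 and -0.12 ± 0.84 (SE; edgeR adjusted p = 0.926 and 0.955). Without anchor cell replicate 1 they were -1.33 and -1.38 (edgeR adjusted p = 0.203 and 0.239).

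The middle pair of the cluster was lower in anchor cells on average, but not beyond the spread. The lpr-5 gene had 45.0, 25.3 and 43.6 CPM in anchor cell replicates 1, 2 and 3, against 96.6, 166 and 16.5 CPM in whole-body replicates 1, 2 and 3. The lpr-6 gene had 14.015, 7.52 and 5.63 CPM in anchor cells, against 24.2, 34.2 and 9.58 CPM in the whole-body libraries. In whole-body replicate 3 lpr-5 was below all anchor cell libraries and lpr-6 lay between them, so the groups overlap (edgeR adjusted p = 0.302 for lpr-5 and 0.288 for lpr-6). Read at their unequal exon lengths, the 4 genes also differed in level: in anchor cells lpr-3 had 89.8, lpr-4 46.7, lpr-5 17.5 and lpr-6 7.25 CPM per kilobase, and in whole-body cells lpr-3 had 101, lpr-4 50.8, lpr-5 42.9 and lpr-6 18.2 CPM per kilobase.

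The lpr genes elsewhere in the genome were lpr-1, lpr-2 and lpr-7, of which lpr-1 and lpr-2 had few counts in anchor cells. The lpr-1 gene had 25, 1 and 0 counts in anchor cell replicates 1, 2 and 3, against 33, 100 and 49 counts in whole-body replicates 1, 2 and 3 (edgeR adjusted p = 0.535), and its log2 difference was -1.96, and -5.59 without anchor cell replicate 1 (edgeR adjusted p = 0.0543; 0.0543 to 0.776 over the alternatives). The lpr-2 gene had 28, 1 and 0 counts, against 209, 204 and 84 counts, with no overlap between the groups after scaling (log2 difference -3.25 ± 1.68 SE; edgeR adjusted p = 0.277). In lpr-1 and lpr-2, nearly all anchor cell counts came from replicate 1, and without that replicate lpr-2 fell by 7.04 on the log2 scale, a fitted value that rests on 1 anchor cell count (edgeR adjusted p = 0.0373; 0.0217 to 0.589 over the alternatives). Exons of lpr-2 share 821 of 3427 bases with H01G02.3 on the opposite strand, so its counts are uncertain. The lpr-7 gene had 135, 80 and 576 counts in anchor cells, against 126, 468 and 5 counts in the whole-body libraries (edgeR adjusted p = 0.429), and was the only lpr gene with a log2 difference above 0, at 1.79 ± 1.24 (SE).

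The mlt genes are named for worms that fail to shed the old cuticle when the gene is silenced. The mlt-11 gene (chromosome V, 20667205 to 20678537) encodes a secreted protein with many Kunitz-type protease inhibitor domains and had the most counts of the whole set. It had 2528, 708 and 1030 CPM in anchor cell replicates 1, 2 and 3, against 1641, 2796 and 465 CPM in whole-body replicates 1, 2 and 3. The group means, 1422 ± 971 CPM in anchor cells, against 1634 ± 1166 CPM in the whole-body libraries (SD over 3 libraries in each group), are closer together than the libraries within either group (edgeR adjusted p = 0.894), and without anchor cell replicate 1 the log2 difference was -0.91 (edgeR adjusted p = 0.330), against -0.20 with it. The mlt-10 gene, for a secreted nematode protein, had 25.5, 24.96 and 67.1 CPM in anchor cells, against 39.6, 128 and 20.8 CPM in the whole-body libraries, which overlap (edgeR adjusted p = 0.613).

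The mlt-8 gene (chromosome II, 569210 to 572110) was the mlt gene nearest to a difference with TMM scaling. It had 82.3, 85.8 and 174 CPM in anchor cell replicates 1, 2 and 3, against 39.9, 88.0 and 22.8 CPM in whole-body replicates 1, 2 and 3. Only whole-body replicate 2 reached the anchor cell values, and the log2 difference was 1.18 ± 0.57 (SE; edgeR adjusted p = 0.239). With library totals alone the difference was 0.19 (edgeR adjusted p = 0.879). The mlt-9 gene had 95.4, 118.7 and 129 CPM in anchor cells, against 90.5, 197 and 46.0 CPM in the whole-body libraries, a log2 difference of 0.04 ± 0.52 whose sign changed with the scaling (SE; edgeR adjusted p = 0.976). Of the genes shown with at least 5 CPM in each group, mlt-9 varied least between anchor cell libraries, with an SD of 15.1% of the mean. The mlt-4 gene, for an ankyrin repeat partner of the NEKL kinases, had 136, 36 and 0 counts in anchor cells, against 29, 90 and 16 counts in the whole-body libraries (edgeR adjusted p = 0.668). Its log2 difference was 1.41, and 0.013 without anchor cell replicate 1.

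Genes of tube lumens and dendrite tips did not pass the test. The let-653 gene (chromosome IV, 11885613 to 11891082) encodes a ZP protein that lines the excretory duct and the developing vulva. It had 69.7, 9.77 and 32.5 CPM in anchor cell replicates 1, 2 and 3, against 72.4, 95.96 and 37.7 CPM in whole-body replicates 1, 2 and 3, and the groups overlap through anchor cell replicate 1 (log2 difference -0.88 ± 0.68 SE; edgeR adjusted p = 0.474), with a log2 difference of -1.70 without it (edgeR adjusted p = 0.0954). It lies 1478 bases from cutl-27 with no protein-coding gene between them. The dex-1 gene, whose product anchors dendrite tips of sense organs, had 19.3, 11.4 and 1.73 CPM in anchor cells, against 19.2, 17.7 and 32.7 CPM in the whole-body libraries (edgeR adjusted p = 0.458). The dyf-7 gene, which encodes the ZP partner of DEX-1 at those tips, had 11, 1 and 38 counts in anchor cells, against 29, 15 and 3 counts in the whole-body libraries (edgeR adjusted p = 0.708).

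The genes of extracellular leucine-rich repeat proteins, which organise apical matrix, overlapped between the groups as well. The sym-1 gene (chromosome X, 14581622 to 14584378) had 310.1, 56.8 and 72.3 CPM in anchor cell replicates 1, 2 and 3, against 440, 662 and 139.5 CPM in whole-body replicates 1, 2 and 3. Anchor cell replicates 2 and 3 were below every whole-body library and replicate 1 was not, with a log2 difference of -1.50 ± 0.73 (SE; edgeR adjusted p = 0.249) and a fall by 2.68 without replicate 1 (edgeR adjusted p = 0.0409; 0.0209 to 0.572 over the alternatives). Its neighbour let-4, 698 bases away, had 79.1, 70.8 and 31.4 CPM in anchor cells, against 54.8, 70.8 and 12.4 CPM in the whole-body libraries (log2 difference 0.39 ± 0.65 SE, and -0.48 with library totals alone; edgeR adjusted p = 0.771). LET-4 and EGG-6 are transmembrane proteins that keep epidermal and excretory junctions intact. The egg-6 gene had 82.1, 31.2 and 104 CPM in anchor cells, against 79.97, 127 and 50.0 CPM in the whole-body libraries (edgeR adjusted p = 0.834).

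The fbn-1 gene (chromosome III, 7625386 to 7641078) encodes a large fibrillin-like ZP protein that resists mechanical strain in epithelia. It had 499, 33.1 and 17.7 CPM in anchor cell replicates 1, 2 and 3, against 292, 313 and 379 CPM in whole-body replicates 1, 2 and 3. The whole-body libraries were alike, while anchor cell replicate 1 was above all of them and replicates 2 and 3 were over 8-fold below each of them. With all libraries the log2 difference was -0.84 ± 0.99 (SE; edgeR adjusted p = 0.665), and without anchor cell replicate 1 the gene fell by 3.69 (edgeR adjusted p = 0.00526; up to 0.863 over the other alternatives).

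Without anchor cell replicate 1, 2 genes of the set rose and 7 fell among 50 tested, where 7.28% of all tested genes rose and 8.71% fell. The rises were of cut-1 and cut-2. The falls were of cut-4, cutl-9, cutl-16, cutl-23, lpr-2, sym-1 and fbn-1. Of the 47 genes tested with all libraries, 27 had their highest anchor cell value in replicate 1 (57.4%, against 41.0% of all tested genes), and 14 had a value there over 4-fold above both other anchor cell libraries (29.8%, against 18.8%).

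The genes with high counts varied together among the whole-body libraries. Of the 17 described genes that averaged 5 CPM or more in both groups, 14 were highest in whole-body replicate 2 and lowest in replicate 3, and they differed between those libraries by 2.54-fold for let-653 to 10.1-fold for lpr-5. The exceptions were cut-2, fbn-1 and dex-1. Over all 47 tested genes 25 had this order, which is 53.2%, against 21.1% of all tested genes, and with library totals alone it was 59.6% against 34.8%. The summed level of the 56 genes was 5442, 1757 and 2334 CPM in anchor cell replicates 1, 2 and 3, against 4019, 6576 and 1634 CPM in whole-body replicates 1, 2 and 3. The epidermis markers summed to 833, 2308 and 6258 CPM in anchor cells, against 532, 1218 and 275 CPM in the whole-body libraries. They had the order of the gene set among whole-body libraries and not among anchor cell libraries. That whole-body order was not particular to them. It was also that of the summed molting regulators, apical hemidesmosome genes, other ZP and leucine-rich repeat genes, and excretory, glia and somatic gonad markers. The other lists did not have it. The part of any list in these results was not tested.

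**Figure D3:**
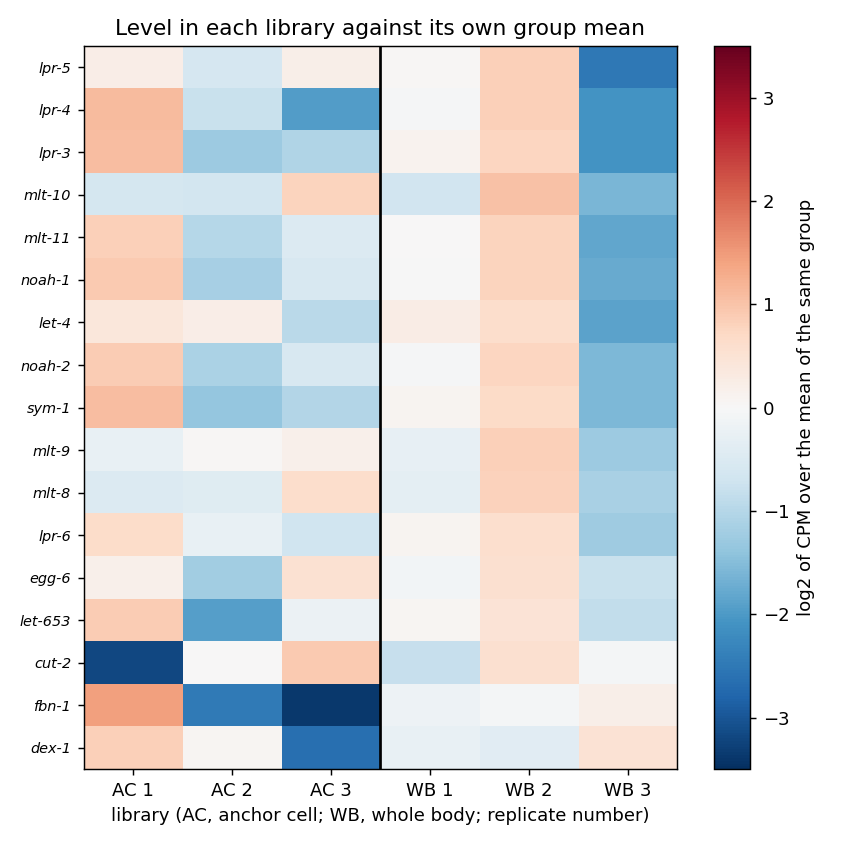
Log2 of the level in each library over the mean of its own group, for the 17 described genes that averaged 5 CPM or more in both groups, anchor cell (AC) libraries at the left and whole-body (WB) libraries at the right. Whole-body replicate 2 is the highest and replicate 3 the lowest whole-body library in 14 of the genes, and fbn-1 ranges from 1.45 in anchor cell replicate 1 to -3.37 in replicate 3.

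Levels were set side by side per kilobase of exon. In anchor cells the highest were mlt-11 at 145, noah-1 and mlt-8 at 103, lpr-3 at 89.8 and sym-1 at 60.1 CPM per kilobase, where the libraries of neighbours in this order overlap. In whole-body cells the highest were sym-1 at 170, mlt-11 at 167, noah-1 at 147 and lpr-3 at 101 CPM per kilobase. The position of cut-1 differed most: at 31.7 CPM per kilobase it ranked 10 of 56 in anchor cells, and at 0.0754 CPM per kilobase 53 of 56 in whole-body cells. That low rank rests on 16 counts.

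**Figure D4:**
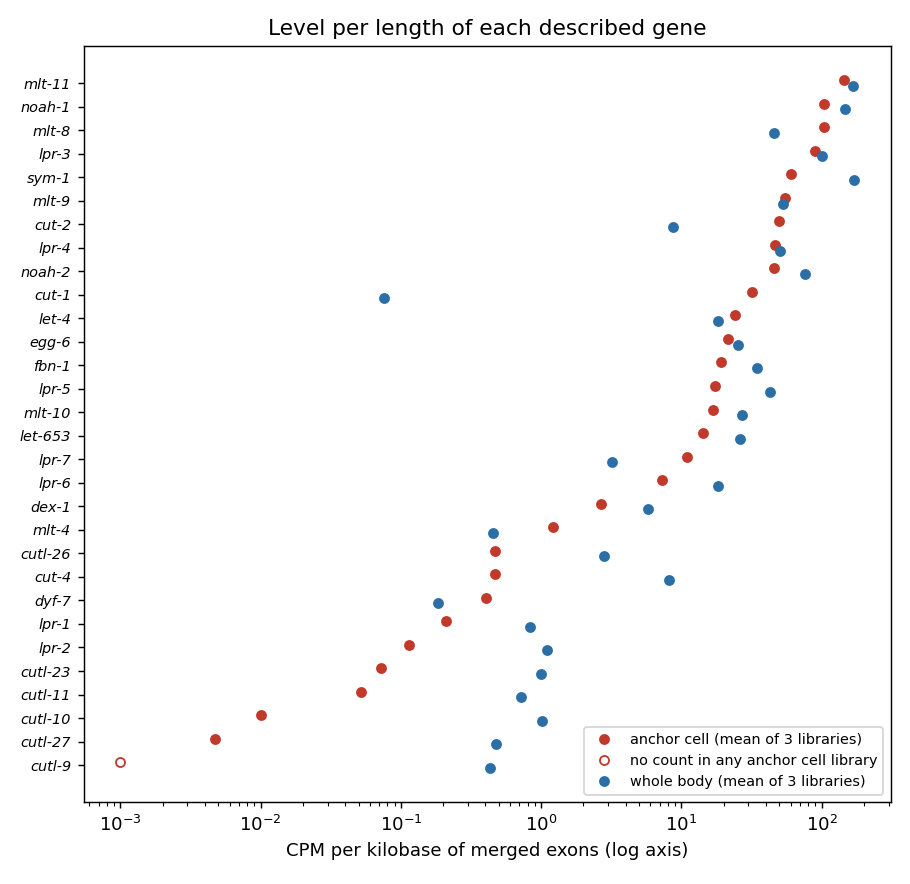
Mean level per kilobase of merged exons, on a log axis, of the 30 described genes, anchor cell in red and whole body in blue, ordered by the anchor cell level; the open symbol marks cutl-9, with no count in any anchor cell library. The colours lie close together for mlt-11, noah-1 and lpr-3, and far apart for cut-1, at 31.7 in anchor cells and 0.0754 in whole-body cells.

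By position, 14 of the 56 genes lie on chromosome X, 11 on II, 10 on I, 8 on IV, 7 on V and 6 on III. Besides the lpr cluster, the let-4 and sym-1 pair and the cutl-27 and let-653 pair, cutl-28 and cutl-26 lie on chromosome IV with 1 protein-coding gene between them. Of these neighbours, cutl-27 had 1 count over the anchor cell libraries and let-653 had 1751, 191 and 674 counts in anchor cell replicates 1, 2 and 3. Exons of 25 of the 56 genes overlap exons of another annotated gene, in 16 of them a protein-coding one, mostly by under 100 bases.

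Genes that regulate molting or hold the matrix, and that are outside the set, included a few that rose. Of 20 tested regulators of molting and matrix assembly 2 rose and none fell by edgeR's test, DESeq2 called 4 rises and no fall, and 17 of the 20 had a log2 difference above 0. Before adjustment 8 were higher and none lower at p under 0.05, where 11.2% and 13.2% of all tested genes were. Over all genes, 2.01% rose and 1.05% fell by edgeR's test, and 5.37% and 10.6% by DESeq2. The NIMA-related kinase gene nekl-3, which acts in molting, had 61.8, 61.2 and 112 CPM in anchor cell replicates 1, 2 and 3, against 8.02, 20.6 and 6.08 CPM in whole-body replicates 1, 2 and 3 (log2 2.75 ± 0.61 SE; edgeR adjusted p = 0.0432). The Patched-related gene ptr-23 averaged 155 ± 29.6 CPM in anchor cells, against 34.5 ± 10.6 CPM in the whole-body libraries (SD over 3 libraries in each group; edgeR adjusted p = 0.0296). The nuclear receptor gene nhr-23, which drives molting gene pulses, averaged 59.0 ± 23.2 CPM in anchor cells, against 68.9 ± 3.39 CPM in the whole-body libraries (SD over 3 libraries in each group; edgeR adjusted p = 0.816). The median over these regulators was 0.92, and 0.001 with library totals alone. Over the 47 tested genes of the matrix set it was -0.51, and -1.35 with library totals alone, and no test was run between these lists.

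The apical hemidesmosome ties the epidermis to the matrix above it. Of 12 genes listed for it and for matrix attachment, 2 rose and none fell by edgeR's test and by DESeq2. Their median was 0.60, and -0.30 with library totals alone. Before adjustment 3 were higher and none lower at p under 0.05, where 11.2% and 13.2% of all tested genes were. The transmembrane matrix receptor gene mup-4 had 2488, 1337 and 1241 CPM in anchor cell replicates 1, 2 and 3, against 125, 477 and 161 CPM in whole-body replicates 1, 2 and 3 (edgeR adjusted p = 0.0396). The intermediate filament gene mua-6 also rose (log2 2.47 ± 0.55 SE; edgeR adjusted p = 0.0438). Of 22 tested genes for other ZP or extracellular leucine-rich repeat proteins 1 rose, lron-10 (log2 3.79 ± 0.83 SE; edgeR adjusted p = 0.0413), and none fell, as also by DESeq2. Before adjustment 2 were higher and 1 lower at p under 0.05. The median was 0.096, and it was -0.071 with upper-quartile scaling and -0.74 with library totals alone. By limma voom it was -0.96, and -1.05 with sample weights. The calls of nekl-3, ptr-23, mup-4 and mua-6 each held in 2 of the 6 fits that leave out a library and that of lron-10 in 1, in each case including the fit without anchor cell replicate 1. With library totals alone none of these 5 passed (edgeR adjusted p of 0.0571 to 0.152).

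Markers of the cell types that make this matrix were read beside these values, and their part was not tested. None of 12 epidermis markers passed edgeR's test, DESeq2 called 3 rises and 1 fall, and their median log2 difference was 1.27, and 0.39 with library totals alone. Before adjustment 5 were higher and 1 lower at p under 0.05, where 11.2% and 13.2% of all tested genes were. Over all genes, 2.01% rose and 1.05% fell by edgeR's test, and 5.37% and 10.6% by DESeq2. No epidermis marker was at 0 in any anchor cell library, and sqt-3, for a cuticle collagen, carried the most, with 196, 1488 and 4872 CPM in anchor cell replicates 1, 2 and 3, against 219, 592 and 44.5 CPM in whole-body replicates 1, 2 and 3. Without sqt-3 the epidermis markers summed to 638 to 1387 CPM in anchor cells, against 231 to 626 CPM in the whole-body libraries. The seam cell markers summed to 117 to 218 CPM in anchor cells, against 79.4 to 144 CPM in the whole-body libraries, and without egl-18 to 35.5 to 85.4 CPM, against 50.4 to 108.9 CPM. Of the 6 tested, 1 rose, the GATA factor gene egl-18, and 2 fell, the hedgehog-related genes grd-10 and grd-13, while bro-1 had no count in the anchor cell libraries and nhr-73 none in any library. The vulval precursor markers summed to 170 to 255 CPM in anchor cells, against 61.8 to 150.2 CPM in the whole-body libraries (without vab-23, 87.99 to 177 CPM against 57.7 to 129 CPM), and of 7 tested 1 fell, the EGF receptor gene let-23. The excretory markers summed to 210 to 1344 CPM in anchor cells, against 99.8 to 164 CPM in the whole-body libraries, and of 9 tested 1 rose, exc-9. That gene carried the difference in the sum: without it the sums were 94.4 to 100.6 CPM in anchor cells, against 69.0 to 138 CPM in the whole-body libraries, which overlap. The glia markers summed to 29.7 to 72.9 CPM in anchor cells, against 63.9 to 113 CPM in the whole-body libraries, and of 8 tested 1 fell, itx-1. At an unadjusted edgeR p under 0.05, 2 and 2 seam, 2 and 1 vulval, 1 and 1 excretory, and 0 and 4 glia markers were higher and lower. Median log2 differences of these lists were -0.26, 0.90, 1.20 and -2.09 in that order. With library totals alone they were -0.99, 0.22, 0.56 and -2.88. When single libraries were left out, the call of egl-18 held in 1 of 6 fits, those of grd-13, let-23 and itx-1 in 2, that of grd-10 in 3 and that of exc-9 in 4, and egl-18 lost it with library totals alone (edgeR adjusted p = 0.171).

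Markers of other tissues were read as well, and some of them differed. The body wall muscle markers summed to 5074 to 6714 CPM in anchor cells, against 12450 to 17654 CPM in the whole-body libraries, with 2 falls among 8 tested, unc-15 and unc-27, whose calls held in 1 and 4 of 6 fits that leave out a library. The neuron markers summed to 1506 to 3202 CPM in anchor cells, against 264 to 505 CPM in the whole-body libraries, with 1 rise among 8 tested, unc-119, while the other 7 did not pass. The unc-119 gene carried most of that sum in anchor cell replicates 2 and 3, and without it the neuron markers summed to 598 to 1000 CPM in anchor cells, against 263 to 500.2 CPM in the whole-body libraries. By library, unc-119 had 506, 2604 and 2123 CPM in anchor cell replicates 1, 2 and 3, against 4.5, 3.6 and 1.8 CPM in whole-body replicates 1, 2 and 3. Its log2 difference was 9.04 ± 0.83 (SE), far from the 0.14 to 1.78 of the other 7. Why it stood apart from them was not tested. None of 7 tested markers each of pharynx and arcade, intestine, germ line and somatic gonad passed edgeR's test, where DESeq2 called 1, 0, 5 and 1 falls and no rise. Before adjustment, 0 and 0 pharynx, 0 and 0 intestine, 1 and 5 germ line, and 1 and 1 somatic gonad markers were higher and lower at p under 0.05. Of all tested genes 11.2% and 13.2% were, and by DESeq2 5.37% of all genes rose and 10.6% fell. Median log2 differences were -0.87 for pharynx and arcade, -1.21 for intestine, -2.80 for germ line and 0.23 for somatic gonad markers, the last -0.56 with library totals alone.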

How the data were processed

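The deposited tables hold raw whole-number counts per gene for 3 anchor cell and 3 whole-body libraries. The submitters' processing notes name genome build WBcel235 and the tools DESeq2 1.30.1, R 4.0.2, HTSeq, STAR, Trim Galore and FastQC. Pronase E was used at 15 mg/mL on larvae raised at 20 °C, and the Ovation RNA-Seq System amplified 8 to 10 ng of RNA, per the labels' protocols. No source used here gives the aligner settings, the annotation release or the strand setting. Library sizes leave out the 5 HTSeq summary rows; 0.807% to 3.88% of all counts fell outside genes and 0.303% to 0.677% on more than 1 gene.

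All genes were tested together with edgeR 4.0.16 in R 4.3.3 (filterByExpr with a count minimum of 10, TMM, robust quasi-likelihood F test, group as the only term, Benjamini-Hochberg adjustment over 11955 genes, threshold 0.05). The SE is the absolute log2 change divided by the square root of F. A floor is 3 counts over a group; intervals and floors cover counting error only, because PCR copies were not separated by molecular identifiers. Positions and exon lengths come from the Ensembl annotation of WBcel235, which matched 56 of 56 genes; it may differ from the submitters' own. The step was tested on simulated counts. No library duplicated another (chi-square per degree of freedom of 81.0 or more within groups).

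The genes and the 15 comparison lists were chosen with earlier results of these data known. Lists covered molting regulators, other ZP and leucine-rich repeat genes, and genes of apical hemidesmosomes and matrix attachment. The rest held markers of epidermis, seam, vulval precursors, excretory cells, glia, pharynx, muscle, neurons, intestine, germ line, somatic gonad and anchor cells. Of 164 names 2 had no matching row. The lists are described by counts and medians without a set test. Genes given in every library are those past the threshold, the 10 with the smallest p, the 10 with the highest mean, every tested noah-, lpr- and mlt- gene, and the 7 singly named ones, 30 in all. From the lists, genes past the threshold were named. Of the others, sqt-3 and vab-23 were named as the genes of highest level in their lists. The bro-1 and nhr-73 genes were named for their lack of counts, and nhr-23 for its role. Other genes of small p below the threshold were left out, such as lin-26 (higher) and elt-1 (lower) among epidermis markers and dab-1 (higher) among regulators. Alternatives used limma 3.58.1 and DESeq2 1.42.0.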

Additional observations from a re-analysis of the deposited data

How the results depend on the processing

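Over all genes, 240 rose and 125 fell with all libraries, and the alternatives moved both counts. They were 98 and 372 with library totals alone, 798 and 1580 by DESeq2, 412 and 1132 by limma voom, 635 and 1311 by limma voom with sample weights, and 603 and 372 without a filter; at 10 CPM or more in at least 3 libraries 197 fell. Leaving out single libraries gave 31 to 966 rises and 7 to 1156 falls. In the matrix set, 1 rose and 0 fell. Without a filter 2 rose and 2 fell, at 10 CPM in at least 3 libraries 0 rose, since cut-1 was not tested there, and falls were 7 by DESeq2, 6 by limma voom and 7 by limma voom with sample weights. Leaving out single libraries gave 0 to 2 rises and 0 to 7 falls in the set. The median log2 fold change of the set, -0.51, was -1.35 with library totals alone, -1.28 by limma voom with sample weights, and -1.48 to -0.048 when single libraries were left out. The cause of these shifts was not tested.

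No source used here says whether same-numbered libraries were prepared together. Same-numbered anchor cell and whole-body libraries deviated from their group means with correlations of 0.0530, -0.0323 and -0.0032, and not every library correlated best with its own number. With 3 libraries of different cells in each group, these correlations cannot show whether the libraries were paired. With the replicate block 390 genes rose and 338 fell, and in the set 1 rose and 2 fell, cut-4 and fbn-1.

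Of 466 fold changes of described genes recomputed under the alternatives, 408 kept their direction and their side of the threshold, 31 passed it newly, 2 lost it, both of cut-1, and 25 changed sign, none of them of a gene past the threshold. The sign changes were to -0.65 for dyf-7 by limma voom with sample weights, to -0.48 for let-4 with library totals alone, and to -0.53 and -0.15 for mlt-4 by limma voom without and with sample weights. For mlt-9 they were to -0.16 with upper-quartile scaling, -0.94 with library totals alone, -0.047 without a filter and -0.12 at 10 CPM in at least 3 libraries. When single libraries were left out, values ran from -0.50 to 2.11 for dyf-7, -0.60 to 0.14 for egg-6, -0.062 to 0.82 for let-4, -1.33 to 0.40 for lpr-3, -1.38 to 0.59 for lpr-4, -1.32 to 0.36 for mlt-10, -0.91 to 0.41 for mlt-11, -0.34 to 0.73 for mlt-9 and -1.33 to 0.12 for noah-1. For the rare cuticlin genes, 3 counts in a single anchor cell library are 0.119 to 0.154 CPM, the floor for a count of 0. That floor covers counting error only, not losses before sequencing. Of 60 recomputed ranks of the 30 described genes by level per kilobase, 58 moved by no more than the spread between anchor cell libraries; in TPM cut-4 and cutl-26, at almost equal levels, exchanged ranks 22 and 21 of 30.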
